A study of Homo sapiens with 6 samples.

Results

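The MAX, MXD and MLX network is the family of transcription factors that share partners with MYCN. The 10 genes described here (*MYC*, *MYCL*, *MAX*, *MXD1*, *MXD3*, *MXD4*, *MXI1*, *MNT*, *MGA* and *MLX*) were chosen by name from 60651 genes, and each matched 1 identifier. The series holds 6 total RNA sequencing libraries from a human neuroblastoma line grown in culture, 3 labelled EtOH (the ethanol vehicle) and 3 labelled Tet (tetracycline for 5 days). The labels disagreed on the cell model. The titles named the *MYCN*-amplified line IMR-5/75 and a tag read knockdown, but the protocol described single clones of SK-N-SH cells that carry the tetracycline repressor plasmid pcDNA6/TR and a tetracycline-inducible *MYCN* gene. Per its methods, the study induced *MYCN* expression in SK-N-AS cells and a *MYCN* shRNA in IMR-5/75 cells. Whether Tet was meant to raise or to lower *MYCN* cannot be told from the labels alone, and the *MYCN* levels are given below. Libraries are therefore called by the label in their titles. The study's methods give 3 independent biological replicates as the default for in vitro experiments. The labels of these libraries did not state whether those of 1 label came from separate clones or cultures. P-values measure the spread between these libraries, which may be technical.

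MYC, MYCN and MYCL are helix-loop-helix leucine zipper proteins that bind DNA only as a pair with MAX, at a short palindrome called the E-box, and recruit enzymes that open chromatin. MXD1, MXI1, MXD3, MXD4 and MNT pair with the same MAX protein at the same sites but recruit SIN3 and histone deacetylases, and MGA brings MAX into a Polycomb-type repressor complex, so the balance between partners sets the output of shared target genes. MLX is a sister of MAX that pairs with MXD1, MXD4 and MNT and with the glucose-sensing factors MLXIP (MondoA) and MLXIPL (ChREBP), while *MYCN* amplification is the hallmark of an aggressive group of neuroblastomas.

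No network member passed the threshold between libraries labelled Tet and those labelled EtOH. Of the 10 members, 9 had enough counts to be tested and *MYC* had not. The repressor genes *MXD1* and *MXD4* had higher levels in all 3 Tet libraries than in any EtOH library, at 1.43-fold and 2.47-fold, and *MYCL* had a lower mean at 0.422-fold with overlapping groups, but after adjustment over all genes none of these differences passed (edgeR quasi-likelihood F test, Benjamini-Hochberg adjusted p = 0.212 for *MXD1*, 0.197 for *MXD4* and 0.291 for *MYCL*). The test called few genes at all, 53 of 22443 (0.236%), of which 33 were higher and 20 lower. At an unadjusted p under 0.05, there were 3 of the 9 members, *MXD1* and *MXD4* higher and *MYCL* lower, beside 10.8% of all genes tested. The groups did not overlap in 2 of the 9 members and in 17.5% of all genes. The median log2 fold change of the 9 members was 0.19, from -1.25 to 1.31, with 5 above 0, and the median over all genes tested was -0.0061. DESeq2, which called 2.7% of genes, placed *MXD4* past the threshold (adjusted p = 0.0143) and no other member. With a block for the replicate number, edgeR called 3.01% of genes, among them *MXD4* and *MYCL*.

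The libraries held between 27933378 and 40498065 counts, so that 3 counts corresponded to between 0.0741 and 0.107 CPM, the count scaled to a common library total. Replicate 2 of each label stood at the same end of the first principal component, which took 44.7% of the variance, at 84.2 for EtOH and 47.3 for Tet against values between -55.0 and -1.8 in the other libraries. The labels separated along the next component (25.7%). Without EtOH replicate 2, edgeR called 2.89% of 23935 genes.

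Levels were compared between genes only per exon length, as TPM, the count per exon base scaled to a common total. *MGA* was the most abundant member at a mean of 41.6 TPM (37.2 to 46.3 over the 6 libraries), followed by *MXI1* at 24.1 TPM (21.0 to 33.8) and *MXD1* at 20.4 TPM (16.4 to 25.1). *MAX*, a partner of all of these, had 10.6 TPM (8.75 to 12.7), against 195.0 TPM (135.5 to 289.5) for *MYCN*. *MLX* at 5.75 TPM (3.83 to 8.59), *MYCL* at 4.08 TPM (1.76 to 7.25), *MNT* at 3.03 TPM (1.82 to 4.18), *MXD4* at 1.35 TPM (0.605 to 2.45), *MXD3* at 0.588 TPM (0.242 to 1.33) and *MYC* at 0.0248 TPM (0 to 0.0654) came after. The ranges of neighbours in this order were apart for *MGA* and *MXI1*, for *MXD1* and *MAX*, for *MAX* and *MLX*, and for *MXD3* and *MYC*, and they overlapped for every other pair of neighbours. The annotation gives *MAX* 6257 exon bases but its canonical transcript only 2010 bases, and with canonical lengths *MAX* (12.1 CPM per kb) moved above *MXD1* (8.62) and *MXD3* (1.07) above *MXD4* (0.905).

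**Figure D1:**
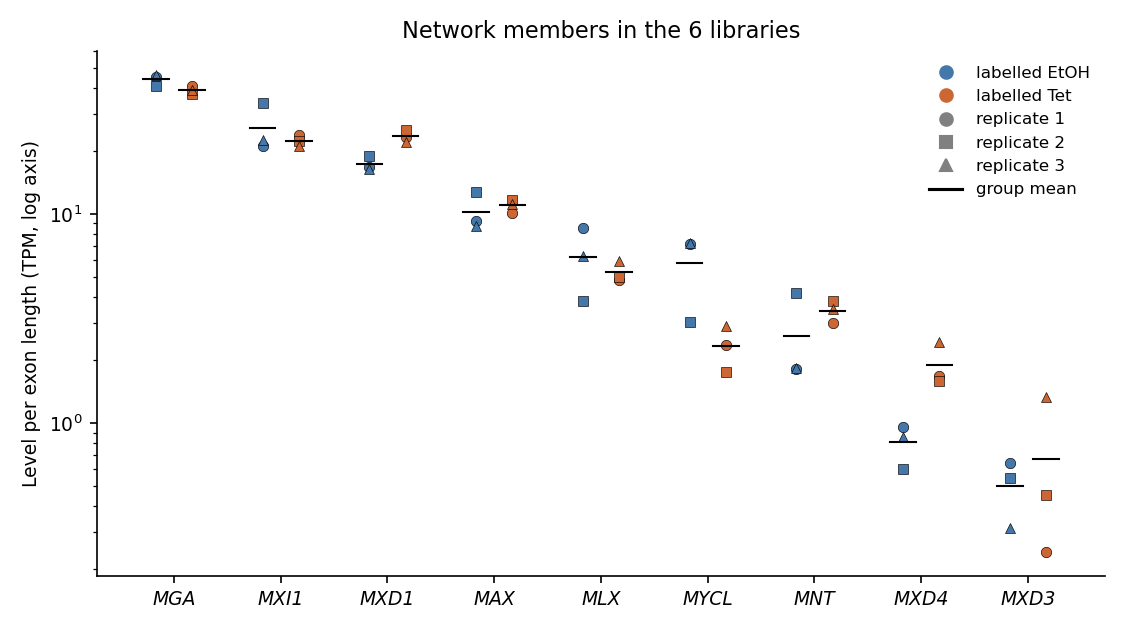
Level per exon length (TPM, log axis) of 9 network members in each library, with libraries labelled EtOH in blue, those labelled Tet in orange, the replicate number as the shape and group means as bars. *MGA* lies highest at 37.2 to 46.3 TPM, *MXD1* and *MXD4* are the genes whose groups are apart, and *MYC* is not drawn because it is at 0 in 1 library.

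Some of the network genes have an E-box in their own promoters, which is shown here because it is the letter pattern that the MAX pairs bind. The motif searched was CACGTG, which reads the same on both strands. The windows were RefSeq promoters of GRCh38.p14 from 250 bases before to 50 bases after the RefSeq start. That start can differ from the gene ends printed below. Of the 9 members with a promoter entry, 3 (*MXD4*, *MNT* and *MLX*) held it, 33.3%, beside 2548 of 35116 promoters in all, 7.26%. In the gene lists described below, the share ran from 0% (4 promoters, *ZBTB17* list) to 60.0% (5 promoters, targets of MLX with the glucose-sensing factors). The promoters of *MYCN*, *MLXIP* and *MLXIPL* did not hold these letters in that window. The sites are printed 5′ to 3′ on the strand of the gene, with the E-box in capitals and 12 bases on either side. They lie at chr4:2262330-2262359 (minus strand, 238 bases before the start), chr17:2401236-2401265 (minus strand, 193 bases before) and chr17:42567038-42567067 (plus strand, 50 bases before).
*MXD4*: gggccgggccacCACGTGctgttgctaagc
*MNT*: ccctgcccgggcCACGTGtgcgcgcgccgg
*MLX*: gcgggcgcgggtCACGTGggcacgccaccc

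*MYC*, the family member most often deregulated in human cancer, was almost silent in these cells (ENSG00000136997.21, chr8:127735434-127742951 on GRCh38, plus strand). It had 1, 1 and 0 counts in EtOH replicates 1, 2 and 3 and 3, 1 and 2 counts in the Tet replicates, 8 counts in all. Every library was at or under 3 counts, so no fold was calculated.

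*MYCL*, first found amplified in lung cancer, was measured at 13.4, 5.19 and 13.5 CPM in EtOH replicates 1 to 3 and at 4.22, 3.27 and 6.04 CPM in Tet replicates 1 to 3 (ENSG00000116990.11, chr1:39895426-39902256, minus strand). EtOH replicates 1 and 3 were high, and EtOH replicate 2 lay among the Tet libraries. The means were 10.7 ± 4.77 and 4.51 ± 1.41 CPM (SD, n = 3 each). On the log2 scale Tet minus EtOH was -1.25 (SE 0.40, 95% interval -2.15 to -0.34; edgeR adjusted p = 0.291). Without EtOH replicate 2 the log2 fold change was -1.57 with an edgeR adjusted p of 0.0184, and without replicate 2 of both labels it was -1.38 with 0.0192. With a replicate block and all 6 libraries it was -1.17 with 0.0299. Over all alternatives the log2 fold change of *MYCL* stayed between -1.57 and -1.06 and the adjusted p ran from 0.0184 to 0.758. Reads were not separated by strand, and 4.46% of *MYCL* exon bases lie inside the antisense gene *MYCL-AS1*, which had a mean of 0.189 CPM.

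*MYCN* itself stood at 157.9, 256.3 and 155.9 CPM in the EtOH libraries and at 196.6, 200.1 and 145.4 CPM in the Tet libraries. The groups overlapped, and their log2 difference was -0.07 (SE 0.23, 95% interval -0.60 to 0.46; edgeR adjusted p = 0.956). EtOH replicate 2 held the highest *MYCN* level, and without it the log2 fold change was 0.21. Without tetracycline *MYCN* was thus at 155.9 CPM or more, while *MYC* had 1, 1 and 0 counts in the same EtOH libraries. The titles name a *MYCN*-amplified line, whereas the study states that the SK-N-AS line has no such amplification. Which cell model these levels belong to was not tested.

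*MAX*, the hub of the network, was measured at 21.4, 26.9 and 20.1 CPM in the EtOH libraries and at 22.4, 26.9 and 28.7 CPM in the Tet libraries (ENSG00000125952.20, chr14:65006174-65102695, minus strand). Its within-group spread was lower than that of most genes (33.5th percentile), and the groups overlapped. Tet against EtOH, *MAX* differed by 0.19 on the log2 scale (SE 0.19, 95% interval -0.24 to 0.61; edgeR adjusted p = 0.802). Of its exon bases, 16.1% are shared with genes on the opposite strand, among them *FNTB* and *CHURC1-FNTB*, and reads there were divided between the genes.

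*MXD1*, which encodes the founding MAX partner of the repressor branch and rises in many cells as they differentiate, was measured at 39.3, 40.7 and 38.2 CPM in the EtOH libraries and at 52.7, 58.6 and 57.3 CPM in the Tet libraries (ENSG00000059728.11, chr2:69897688-69942945, plus strand). The groups were well apart, and replicate 2 of each label lay close to its own group. The means were 39.4 ± 1.24 and 56.2 ± 3.08 CPM (SD, n = 3 each). Tet exceeded EtOH by 0.51 on the log2 scale (SE 0.14, 95% interval 0.20 to 0.83; edgeR adjusted p = 0.212). The within-group SD of *MXD1* on the log2 scale, 0.06, was smaller than in all but 1.46% of genes, beside a median of 0.25 over all genes tested. Its log2 fold change was also the steadiest of the members, between 0.47 and 0.55 under all alternatives, while the adjusted p ran from 0.0563 to 0.794 and never passed.

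*MXD4*, a repressor found mostly in resting and differentiating cells, was measured at 2.46, 1.41 and 2.18 CPM in the EtOH libraries and at 4.11, 3.98 and 6.90 CPM in the Tet libraries (ENSG00000123933.17, chr4:2247432-2262109, minus strand). Every Tet library was above every EtOH library, and Tet replicate 3 was the highest. The means were 2.01 ± 0.544 and 4.99 ± 1.65 CPM (SD, n = 3 each). Of the members it had the highest log2 fold change, at 1.31 (SE 0.34, 95% interval 0.53 to 2.08; edgeR adjusted p = 0.197). It was 1.0 without Tet replicate 3 and between 1.11 and 1.45 without any other single library, and the adjusted p over all alternatives ran from 0.0143 to 0.589.

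*MXD3*, the repressor gene linked to dividing rather than resting cells, was low at 1.23, 0.938 and 0.595 CPM in the EtOH libraries and 0.425, 0.846 and 2.82 CPM in the Tet libraries (ENSG00000213347.10, chr5:177301461-177312757, minus strand). Tet replicates 1 and 2 lay within or below the EtOH range and Tet replicate 3 lay far above it. Its mean log2 difference was 0.58 (SE 0.66, 95% interval -0.92 to 2.08; edgeR adjusted p = 0.833), and it turned to -0.52 without Tet replicate 3. Of the *MXD3* exon bases, 40.2% lie inside other genes, chiefly *RAB24* and *PRELID1*, which had mean levels of 0.409 and 0.740 CPM, so the *MXD3* level is uncertain.

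*MXI1*, a MAX partner once studied as a candidate tumour suppressor, stood at 46.4, 67.6 and 49.0 CPM in the EtOH libraries and at 49.8, 48.4 and 50.8 CPM in the Tet libraries (ENSG00000119950.21, chr10:110207605-110287365, plus strand). Apart from EtOH replicate 2 the libraries lay within a few CPM of each other. Tet against EtOH, *MXI1* differed by -0.13 on the log2 scale (SE 0.18, 95% interval -0.54 to 0.28; edgeR adjusted p = 0.873), and without EtOH replicate 2 it was 0.07.

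**Figure D2:**
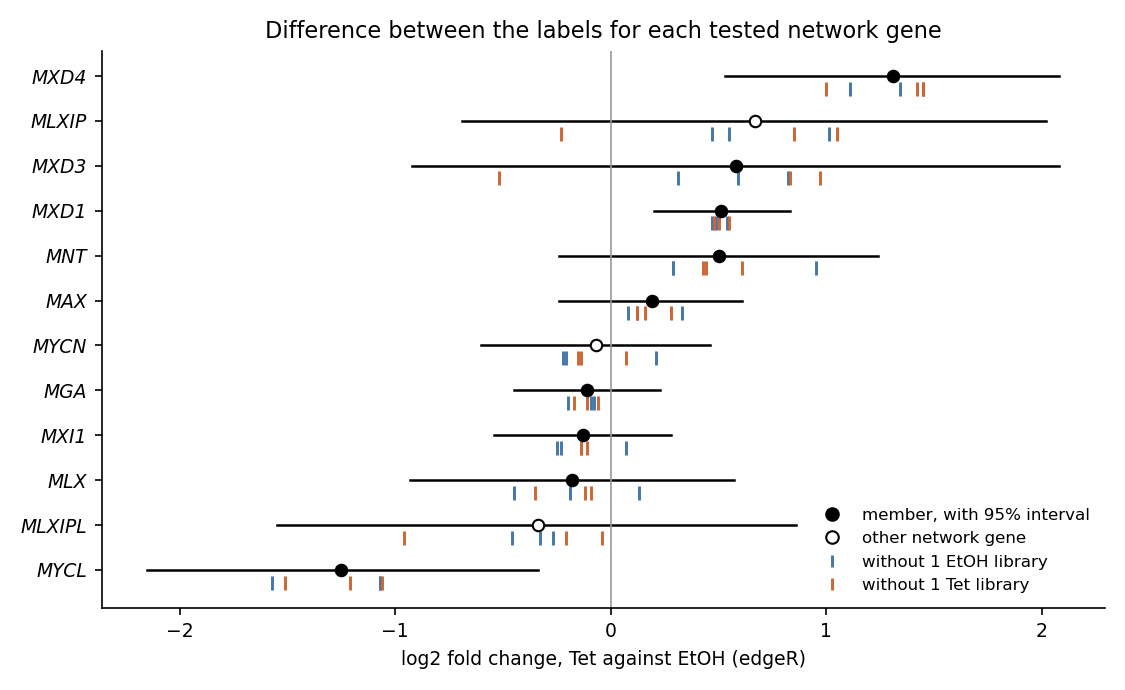
Log2 fold change of Tet against EtOH (edgeR) with its 95% interval for the 9 tested members (filled points) and for *MYCN*, *MLXIP* and *MLXIPL* (open points), and ticks for the values without each library in turn. The ticks of *MXD1* lie within 0.47 to 0.55, whereas those of *MXD3* run from -0.52 to 0.97.

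*MNT*, the most widely expressed antagonist of MYC and a partner of both MAX and MLX, was measured at 5.86, 12.3 and 5.88 CPM in the EtOH libraries and at 9.22, 12.3 and 12.4 CPM in the Tet libraries (ENSG00000070444.15, chr17:2384073-2401104, minus strand). EtOH replicates 1 and 3 were nearly equal and below all Tet libraries, and EtOH replicate 2 matched the upper Tet values. The fitted log2 difference was 0.50 (SE 0.32, 95% interval -0.24 to 1.24; edgeR adjusted p = 0.654), and it rested on that library too, at 0.95 without it (adjusted p = 0.0541).

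*MGA*, a very large protein with a T-box as well as a MAX-binding domain, had the highest counts of the members, at 296.7, 243.1 and 300.4 CPM in the EtOH libraries and 256.5, 241.0 and 281.3 CPM in the Tet libraries (ENSG00000174197.16, chr15:41621224-41773081, plus strand). The groups overlapped, with replicate 2 the lowest under each label. Fitted over all libraries, the log2 difference was -0.11 (SE 0.15, 95% interval -0.45 to 0.23; edgeR adjusted p = 0.872) and stayed between -0.20 and -0.06 under all alternatives.

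*MLX*, the MAX-like partner of the glucose-sensing factors, was measured at 13.6, 5.52 and 9.79 CPM in the EtOH libraries and at 7.30, 7.78 and 10.4 CPM in the Tet libraries (ENSG00000108788.12, chr17:42567072-42573239, plus strand). All Tet values fell inside the EtOH range. Between the labels *MLX* differed by -0.18 on the log2 scale (SE 0.33, 95% interval -0.93 to 0.57; edgeR adjusted p = 0.909), with 0.13 without EtOH replicate 1. Of its exon bases, 18.2% are shared with *PSMC3IP* on the opposite strand, a gene with a mean of 13.4 CPM.

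The glucose-sensing partners of MLX were low. *MLXIP* had 2.18, 1.23 and 1.12 CPM in the EtOH libraries and 0.815, 1.75 and 4.61 CPM in the Tet libraries, a log2 difference of 0.67 (SE 0.59; edgeR adjusted p = 0.774) that was -0.23 without Tet replicate 3. *MLXIPL* stayed under 1 CPM in every library, at 0.697, 0.541 and 0.760 CPM and at 0.248, 0.423 and 0.881 CPM, a log2 difference of -0.34 (SE 0.53; edgeR adjusted p = 0.887). Per exon length, the sum of both was 0.814, 0.593 and 0.650 TPM and 0.311, 0.582 and 1.26 TPM, below the level of *MLX* in each library.

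The members with a CACGTG E-box in the promoter window, printed above, did not share a direction. The log2 fold changes of *MXD4*, *MNT* and *MLX* were 1.31, 0.50 and -0.18. *MXD1*, the other gene with separate groups, had no CACGTG in its window. That window, chr2:69914859-69915158, lies inside the gene span printed above, whose own start was not searched. A match of letters says nothing of binding in these cells.

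Expressed as a balance, *MYCN* supplied the largest share of the transcripts of the MAX partners. This was between 59.6% and 74.0% of their summed TPM, or 49.5% to 65.4% with canonical transcript lengths. *MGA* came next with 10.4% to 18.0%. The share of *MXD1* was 6.50%, 4.83% and 6.36% in the EtOH libraries and 7.62%, 8.36% and 9.67% in the Tet libraries, without overlap. The share of *MYCL* was 2.79%, 0.775% and 2.82% against 0.764%, 0.585% and 1.28%, with EtOH replicate 2 at the level of the Tet libraries.

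**Figure D3:**
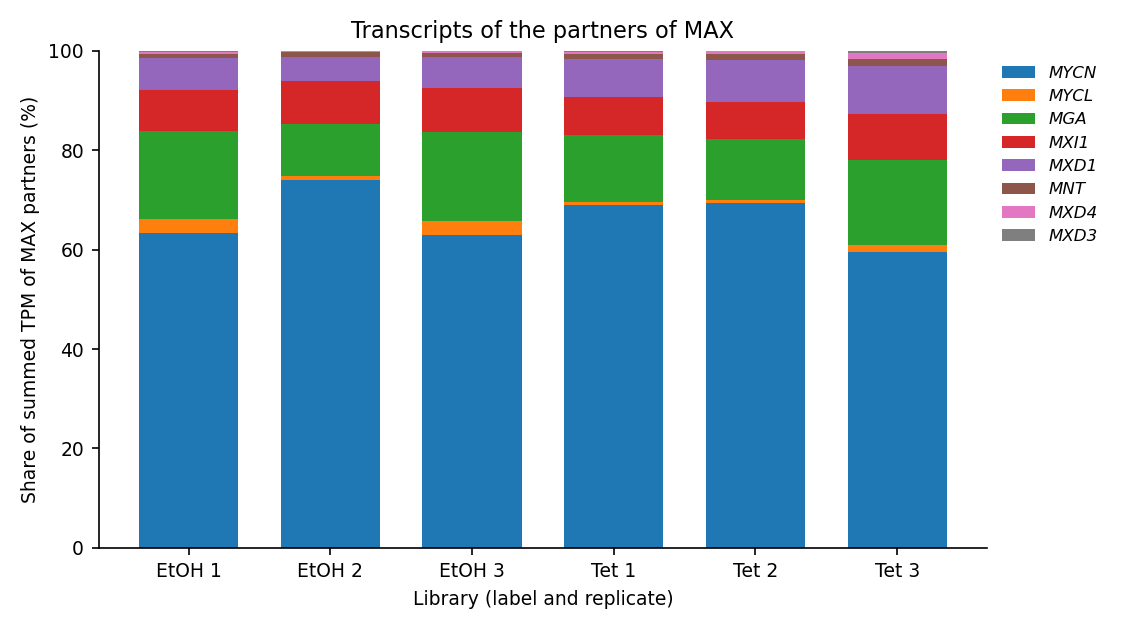
Share of the summed TPM of the MAX partners (%) in each of the 6 libraries, stacked by gene, with *MYC* left out of the drawing at no more than 0.0213%. *MYCN* fills between 59.6% and 74.0% of each bar, and the *MXD1* band is wider in each Tet library (7.62% to 9.67%) than in any EtOH library (4.83% to 6.50%).

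The summed TPM of the antagonists (*MXD1*, *MXD3*, *MXD4*, *MXI1*, *MNT* and *MGA*) was 86.6, 98.7 and 88.2 in the EtOH libraries and 93.1, 90.5 and 89.1 in the Tet libraries. Divided by the summed TPM of *MYC*, *MYCN* and *MYCL*, this gave 0.510, 0.338 and 0.521 antagonist transcripts per MYC-family transcript under EtOH and 0.434, 0.431 and 0.643 under Tet. The means were 0.456 ± 0.103 and 0.503 ± 0.122 (SD, n = 3 each), and their log2 difference of 0.14 was smaller than the SD within groups, 0.342. It was 0.30 with *MGA* left out of the sum, and with canonical lengths the ratios ran from 0.507 to 0.958 with a log2 difference of 0.14. The difference had no stable sign, at -0.06 without EtOH replicate 2 and -0.05 without Tet replicate 3. *MAX* supplied between 0.0325 and 0.0492 transcripts per partner transcript, or 0.0892 to 0.127 with canonical transcript lengths.

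The members did not all move in the same direction from library to library, and how closely pairs of them moved together was not measured. Relative to its own mean on the log2(CPM + 1) scale, *MYCL* was at 0.91 and 0.92 in EtOH replicates 1 and 3, where *MNT* was at -0.58 and -0.57. In EtOH replicate 2, *MXI1*, *MNT* and *MYCN* were above their means, at 0.38, 0.38 and 0.49, and *MXD4* and *MLX* were below theirs, at -0.79 and -0.58. In Tet replicate 3, *MXD3*, *MXD4* and *MLXIP* had values of 0.91, 0.92 and 1.04, their highest in the series.

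**Figure D4:**
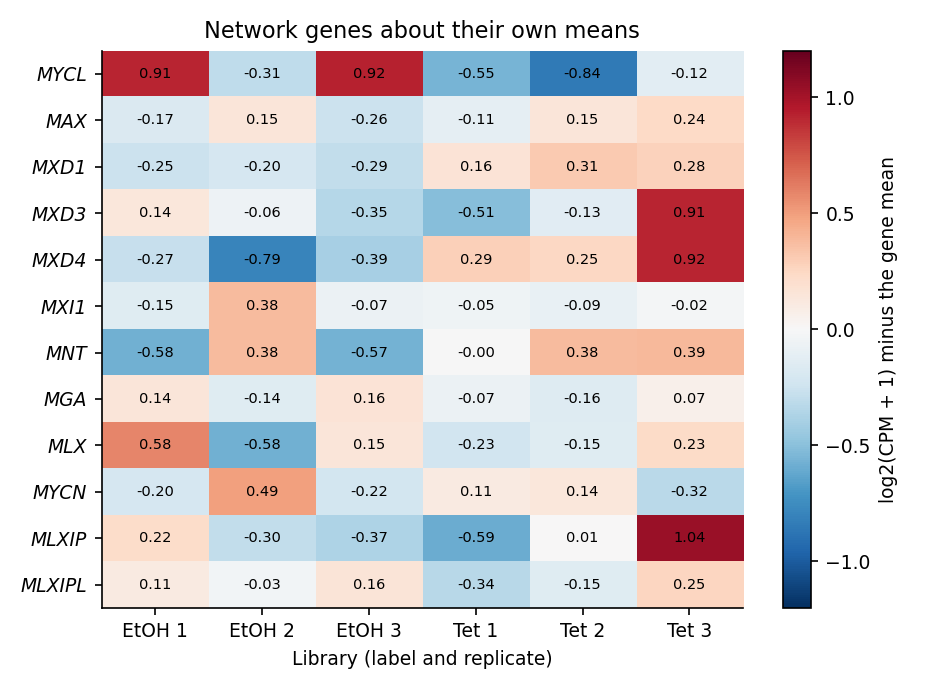
Log2(CPM + 1) of 12 network genes minus the mean of each gene over the 6 libraries, with rows for genes, columns for libraries, red for above and blue for below the mean. *MXD1* and *MXD4* are below their means in all EtOH libraries and above them in all Tet libraries, and *MYCL* is high at 0.91 and 0.92 in EtOH replicates 1 and 3.

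The genes whose levels followed a member most closely were found by the root mean square difference between centred log2(CPM + 1) values over the 6 libraries, among 10088 genes with a mean of at least 5 CPM. For *MAX* these included *ZNF277-AS1* (0.0515) and the thioredoxin reductase gene *TXNRD1* (0.0543), where *MAX* varied by 0.18 about its own mean. For *MXD4*, compared with 10089 genes and varying by 0.56, they were *CDKN1A* (0.133), the pseudogene *RPL5P18* (0.135) and the neural adhesion gene *L1CAM* (0.139). *CDKN1A*, which encodes the cell cycle inhibitor p21, was at 4.30, 2.20 and 3.44 CPM in the EtOH libraries and at 5.67, 4.68 and 10.4 CPM in the Tet libraries. It had the same lowest and highest library as *MXD4*, but it was picked for its likeness over these same libraries.

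Genes that work with the network were described in 8 lists, 94 genes in all, of which 90 were tested and none passed the threshold (edgeR adjusted p). At an unadjusted p under 0.05 there were 8, in 13 the groups did not overlap, and DESeq2 placed 5 past the threshold, beside 10.8%, 17.5% and 2.7% of all genes. The list of *MYCN*, *MLXIP* and *MLXIPL* is given above. Among the enzymes that MYC proteins recruit to open chromatin and release RNA polymerase, 15 of 15 were tested with a median log2 fold change of 0.13 and 9 above 0. The most abundant were *CCNT1*, the cyclin of the elongation kinase (-0.12), and *ACTL6A*, a chromatin remodelling subunit (-0.03). The acetyltransferase gene *CREBBP* had the smallest p of the list, with 49.9, 52.7 and 47.3 CPM in the EtOH libraries below 62.0, 89.8 and 59.3 CPM in the Tet libraries and a log2 difference of 0.49 (SE 0.19; edgeR adjusted p = 0.394), or 0.28 without Tet replicate 2.

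On the repressor side, all 17 genes of the SIN3 and deacetylase complex were tested, with a median of 0.10, 10 above 0 and none at an unadjusted p under 0.05. *RBBP4*, a histone-binding subunit, was at -0.13, the deacetylase gene *HDAC2* at 0.32 and *ARID4A* at 0.29. In the Polycomb-type complex of MGA, 12 of 13 genes were tested (*RING1* was not), with a median of -0.04 and 4 above 0, and *CBX3*, a reader of methylated histone, was at 0.30 with values from 206.3 to 559.7 CPM. Without EtOH replicate 2 *CBX3* was at 0.91 (edgeR adjusted p = 0.0596) and without replicate 2 of both labels at 0.65 (0.0264), but between 0.02 and 0.07 without EtOH replicate 1 or 3 or Tet replicate 2. Among regulators of MYC protein stability, 14 of 14 were tested with a median of -0.03 and 6 above 0.

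*AURKA*, the mitotic kinase that shields MYCN protein from degradation, was measured at 27.6, 25.8 and 24.6 CPM in the EtOH libraries and at 16.3, 16.0 and 14.9 CPM in the Tet libraries. All Tet libraries lay below all EtOH libraries. *AURKA* had a log2 difference of -0.72 (SE 0.16; edgeR adjusted p = 0.131), and it was past the threshold with DESeq2 (adjusted p = 0.00363), with a replicate block (0.0324), without EtOH replicate 2 (0.0452) and without replicate 2 of both labels (0.0394). In the same list *CIP2A*, an inhibitor of the phosphatase that marks MYC for removal, lay between 151.9 and 412.7 CPM and differed by -0.17 on the log2 scale (0.46 without EtOH replicate 2), and the deubiquitinase gene *USP7* was at 0.03.

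Of 20 textbook E-box targets of MYC and MAX, 19 were tested (*CCND2* was not), with a median log2 fold change of -0.18, 3 above 0 and 4 with groups apart, beside 17.5% of all genes. *LDHA*, the lactate dehydrogenase subunit of glycolysis, was at 105.7, 78.3 and 102.5 CPM in the EtOH libraries and 51.0, 45.9 and 50.8 CPM in the Tet libraries. This was a log2 difference of -0.96 (SE 0.16; edgeR adjusted p = 0.0690), with an adjusted p between 8.55e-05 and 0.357 over the alternatives, of which it passed with DESeq2, the replicate block, no filter, without EtOH replicate 2 and without replicate 2 of both labels. *GNL3*, a nucleolar GTPase gene that is named because it was the other target at an unadjusted p under 0.05, was at -0.68 (SE 0.18; edgeR adjusted p = 0.193). The abundant nucleolar genes *NPM1* and *NCL* were at -0.48 and -0.14 and overlapped between labels, and without EtOH replicate 2 they were at -0.18 and 0.08.

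MYC proteins also repress genes through ZBTB17 (MIZ1). The list of 8 genes holds *ZBTB17* itself beside such genes, and 7 were tested (*CDKN1C* was not). Their median was 0.61 with 5 above 0. Both values include *ZBTB17*, which had the highest log2 fold change of the list. *ZBTB17* itself was low, at 0.363, 0.289 and 0.397 CPM in the EtOH libraries and 0.922, 0.931 and 2.16 CPM in the Tet libraries, a log2 difference of 1.93 (SE 0.49; edgeR adjusted p = 0.184, DESeq2 adjusted p = 0.0256). *CDKN1A* was at 1.06 (SE 0.38; edgeR adjusted p = 0.354; 0.64 without Tet replicate 3), and *CLU*, which encodes the chaperone clusterin and was named after its values were seen, at 1.57 (SE 0.48; edgeR adjusted p = 0.270). These 3 had the only non-overlapping groups among the 7 tested, beside 17.5% of all genes. The most abundant gene of the list, *ITGB1*, was at 0.05.

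Of 7 targets of MLX with the glucose-sensing factors, 6 were tested (*PKLR* was not), with a median of 0.24 and 4 above 0. *TXNIP*, the classical glucose-responsive target, was at 30.0, 89.8 and 32.2 CPM in the EtOH libraries and 96.2, 49.5 and 62.4 CPM in the Tet libraries, a spread within groups larger than in 98.1% of genes, and the labels differed by 0.45 on the log2 scale (SE 0.43; edgeR adjusted p = 0.791). Without EtOH replicate 2 *TXNIP* was at 1.16 (edgeR adjusted p = 0.0468), and without replicate 2 of both labels at 1.35 (0.0136), but it was between 0.13 and 0.18 without EtOH replicate 1 or 3 or Tet replicate 1. *KLF10* was at 0.19, at 1.02 without EtOH replicate 2 (edgeR adjusted p = 0.036) and at 0.83 without replicate 2 of both labels (0.0325), and below 0 without EtOH replicate 1 (-0.14) or 3 (-0.10). *ACACA*, the enzyme gene of the committed step of fatty acid synthesis, had the smallest p of the list, at -0.63 on the log2 scale (SE 0.23; edgeR adjusted p = 0.365), and it passed without EtOH replicate 2 (-0.82, adjusted p = 0.0296) and without replicate 2 of both labels (-0.74, 0.0325).

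**Figure D5:**
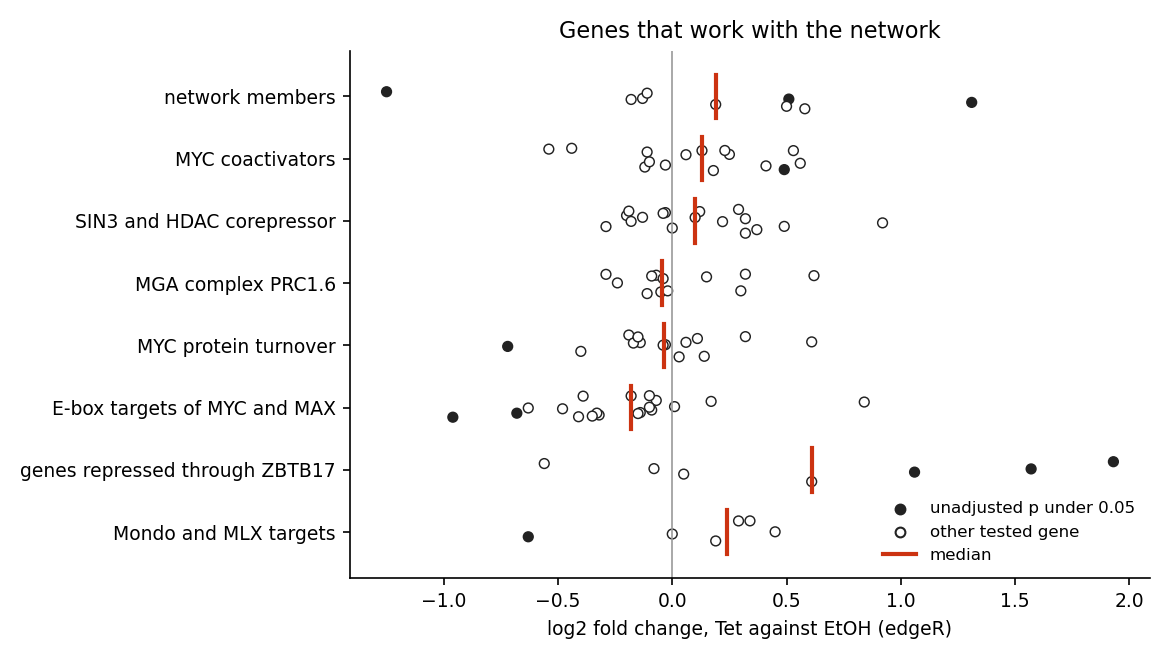
Log2 fold change of Tet against EtOH (edgeR) for each tested gene of the network and of 7 lists of genes that work with it, with filled points at an unadjusted p under 0.05 and red bars at list medians. Medians run from -0.18 for the E-box targets to 0.61 for *ZBTB17* and the genes repressed through it, and no point passes the adjusted threshold.

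The labelled cell type was checked by its markers. The noradrenergic transcription factor gene *GATA3* was high in every library, whereas *TH* and *DBH*, the catecholamine enzyme genes, were untested at low counts. The summed TPM of 11 noradrenergic markers was 584.6 to 614.8 in the EtOH libraries and 661.3 to 775.0 in the Tet libraries, with a median log2 fold change of 1.05 over the 9 tested and *DDC* past the threshold (3.55; edgeR adjusted p = 0.0280). These sums moved in the same direction as *MXD1* and *MXD4*, and their part in those values was not tested. The 8 mesenchymal markers summed to 34.7 to 69.3 TPM under EtOH and 27.9 to 40.1 TPM under Tet, with *COL1A2* at 0. Of the 6 tested, 2 had a log2 fold change above 0, and the markers did not share a direction. *PRRX1*, the most abundant at a mean of 21.7 TPM, was at -1.02 (edgeR adjusted p = 0.317). *COL3A1* was at 1.03 (edgeR adjusted p = 0.143), and the groups of both genes were apart. Of the blood markers, *CD3E* and *HBB* were at 0, and of the Schwann cell markers, *S100B* was at 0, in all 6 libraries. The blood sums were at most 0.821 TPM and the Schwann sums at most 3.50 TPM. Fewer cells of a type and less RNA per cell cannot be told apart in such bulk libraries.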

How the data were processed

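Each library's deposited table gave unscaled estimated counts for every gene. Per the file headers, the authors counted unique STAR alignments (GRCh38) over exons with featureCounts 1.6.4, dividing a read pair evenly among overlapping genes and ignoring strand. The submitters' processing notes name STAR 2.7.1a and featureCounts 1.5.1, and the study's methods describe other counting options, which use strand. The headers were followed here. In a library, 12.3% to 14.7% of genes had a fractional value, and all values were rounded, since the test had been planned for whole counts. Symbols were found for 60481 of 60651 identifiers, and coordinates are those of the files. The 92 spike-ins were at 0 and left out.

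Genes were kept with filterByExpr, scaled by TMM and compared (Tet against EtOH, 6 libraries) with edgeR 4.0.16 (R 4.3.3, quasi-likelihood F test), with Benjamini-Hochberg adjustment over all 22443 genes and a threshold of 0.05. SE is the size of the log2 fold change divided by the square root of F. Intervals cover 95%. CPM are TMM-scaled, and TPM were calculated from counts and exon length. The step was run on simulated data to check its estimates and its false calls, and no minimum was set for the share of true changes that it recovered. Libraries of 1 label differed beyond counting noise (chi-square per degree of freedom 10.2 to 128), so none was taken for a repeat deposit of another. Alternatives were other scalings (RLE, upper quartile), filters (none, or a minimum of 10 counts), DESeq2 1.42.0, limma-voom (limma 3.58.1), a replicate block and leaving out each library. Leaving out replicate 2 of both labels, and canonical transcript lengths, were added after the data were seen.

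Named genes were the 10 members, *MYCN*, *MLXIP*, *MLXIPL*, the 2 genes of each list with the highest mean TPM, any past the threshold and that with the smallest p, and 3 genes most like *MAX* and most like the member with the smallest p. Members and lists were chosen with earlier results of these data known. Some genes that these rules and lists name are not reported here.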

Additional observations from a re-analysis of the deposited data

How the results depend on the processing

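No network member passed under the other scalings, the other filters or limma-voom. With DESeq2, 1 member was higher (*MXD4*), beside 346 genes higher and 260 lower in all and 5 of the listed pathway genes. Replicate numbers were checked for pairing: same-numbered libraries correlated at 0.0603, 0.510 and 0.219, and 3 of 6 libraries correlated best with their own number. Since 1 pair lay below 0.1, the numbers were not taken as pairs, which leaves a link between replicates 2 and between replicates 3 possible. The fit with a replicate block called 1 member higher (*MXD4*, edgeR adjusted p = 0.0385) and 1 lower (*MYCL*, 0.0299), with 421 genes higher and 254 lower (3.01% of genes) and 3 pathway genes. RLE scaling called 13 genes lower, and the test without a filter called 185 higher, 117 lower and 1 pathway gene (*LDHA*). Without replicate 2 of both labels, 1 member was lower (*MYCL*), with 487 genes higher, 387 lower and 8 pathway genes, and the log2 fold changes of *MXI1*, *MYCN*, *CIP2A*, *USP7* and *NCL* turned to 0.08, 0.13, 0.17, -0.0 and 0.08. Leaving out 1 library gave 0 to 1 members lower, 0 to 361 genes higher, 0 to 331 lower and 0 to 7 pathway genes, the upper ends all without EtOH replicate 2. The member median ran from -0.14 (without Tet replicate 3) to 0.33 (without EtOH replicate 2). Log2 fold changes that turned were those of *MXD3* (-0.52 to 0.97), *MXI1* (-0.25 to 0.07), *MLX* (-0.45 to 0.13), *MYCN* (-0.22 to 0.21), *MLXIP* (-0.23 to 1.05), *RBBP4* (-0.21 to 0.01), *CIP2A* (-0.46 to 0.46), *USP7* (-0.02 to 0.05), *NCL* (-0.27 to 0.08) and *KLF10* (-0.14 to 1.02). The cause was not tested. In all, 117 alternatives of members kept direction and side of the threshold, 5 moved past it and 4 turned, and for the other named genes these numbers were 275, 17 and 14. Of the network genes, *MYC*, *MLXIPL* and *MXD3* had the fewest counts (8, 120 and 243 over all libraries).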
